A study of Mus musculus with 10 samples.

Results

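Cyclins are the regulatory subunits that switch on cyclin-dependent kinases (CDKs), and 10 genes of this pair of families that act in the division of germ cells were followed in whole testis of Crem knock-out (KO) and wild-type (WT) mice: the A cyclins Ccna1 and Ccna2, the B cyclins Ccnb1 and Ccnb2, the D cyclins Ccnd1 and Ccnd2, the E cyclins Ccne1 and Ccne2, and the kinases Cdk1 and Cdk2. The genes were taken by name. A gene was read from the array feature annotated with its symbol alone, and where several such features exist the one with the highest mean over the 10 arrays is used. By this rule 9 of the 10 genes were measured, each by 1 feature, out of 19661 genes with a symbol. No feature was matched to Ccnb1 and it was not analysed here. RNA from whole testis of 5 WT and 5 KO mice was measured on Mouse Gene ST microarrays of Affymetrix, with 1 animal per array. All mice had the mixed background 129Pas x C57Bl/J, were 8 weeks old and untreated, and were killed at 0 h of circadian time, when the light came on. KO mice are homozygous for a Crem gene interrupted by a neomycin resistance gene at the exons of its DNA binding domains, in every cell of the body. Crem encodes cAMP-responsive transcription factors, among them an activator of spermatids, and in their absence spermatids do not complete their differentiation.

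In a dividing cell D cyclins with CDK4 and CDK6 start the passage from G1 phase to DNA synthesis, E cyclins with CDK2 carry the cell into S phase, A cyclins act with CDK2 and CDK1 in S and G2 phase, and B cyclins with CDK1 drive the entry into M phase. The testis uses these proteins in the mitotic divisions of spermatogonia and in the meiotic divisions of spermatocytes. Ccna1, Ccne1, Ccne2 and Cdk2 are known from mouse mutants to act in male meiosis, and Ccna1 is a germ cell form whose relative Ccna2 is used by mitotic cells. Round and elongating spermatids no longer divide. The activator form of CREM builds up in round spermatids. The study also describes repressor forms in germ cells before meiosis, and the repressor ICER of the same gene in Sertoli cells.

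Start regions were available in RefSeq (GRCm38.p6) for 6 of the 10 genes, namely Ccna1, Ccnb1, Ccnb2, Ccne1, Cdk1 and Cdk2. The 180 bases before the annotated start are shown for the pair of genes with the largest rise, Cdk1 and Ccnb2, for the meiotic cyclin Ccna1, and for Cdk2 as the kinase to set beside Cdk1. All 4 genes lie on the minus strand, and the sequences read 5′ to 3′ in the direction of transcription, from chr10:69352913-69353092 for Cdk1, chr9:70421555-70421734 for Ccnb2, chr3:55055056-55055235 for Ccna1 and chr10:128705052-128705231 for Cdk2. Capitals mark TGACG (the core of the cAMP response element, CRE, to which CREM binds), CCAAT (the box bound by NF-Y) and TTTGAA (a form of the cell cycle homology region, CHR), in reverse complement where they lie on the opposite strand.
Cdk1: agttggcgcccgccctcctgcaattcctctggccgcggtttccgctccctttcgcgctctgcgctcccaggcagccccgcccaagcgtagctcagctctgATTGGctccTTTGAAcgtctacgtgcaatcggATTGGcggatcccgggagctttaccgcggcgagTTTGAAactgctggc
Ccnb2: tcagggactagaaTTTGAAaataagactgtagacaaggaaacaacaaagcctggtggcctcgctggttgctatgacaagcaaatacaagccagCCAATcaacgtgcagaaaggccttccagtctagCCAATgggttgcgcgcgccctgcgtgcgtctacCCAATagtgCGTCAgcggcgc
Ccna1: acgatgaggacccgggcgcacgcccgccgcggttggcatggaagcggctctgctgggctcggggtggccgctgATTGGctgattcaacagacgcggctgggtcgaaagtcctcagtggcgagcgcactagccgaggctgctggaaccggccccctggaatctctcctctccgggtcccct
Cdk2: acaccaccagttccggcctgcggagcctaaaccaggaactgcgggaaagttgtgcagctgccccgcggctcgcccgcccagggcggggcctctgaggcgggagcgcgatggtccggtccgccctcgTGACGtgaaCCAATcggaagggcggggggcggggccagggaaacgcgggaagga

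The search covered both strands of the 300 bases from 250 before to 50 after the start, and the shares below are those of 32841 RefSeq promoters of the same length. No window of the 6 genes held the complete palindrome TGACGTCA, which contains TGACG and was found in 1.79% of all promoters. The core TGACG was found once in Ccnb2, at 12 to 8 bases before the start on the opposite strand, and once in Cdk2, at 54 to 50 bases before it, against 20.8% of all promoters. CCAAT, found in 37.4% of all promoters, occurred 3 times in Ccnb2, 3 times in Cdk1, 2 times in Ccnb1, once in Ccna1 and once in Cdk2. TTTGAA, found in 17.9%, occurred 2 times each in Ccnb2 and Cdk1 and in no other of these windows. The E2F string TTNNCGC, found in 20.2% and not marked in the sequences, occurred 4 times in Cdk1, 3 times in Cdk2 and once in Ccnb1, where it overlaps a CCAAT. None of the 5 strings was in the window of Ccne1. These matches are letters in a window and no evidence of binding.

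**Figure D1:**
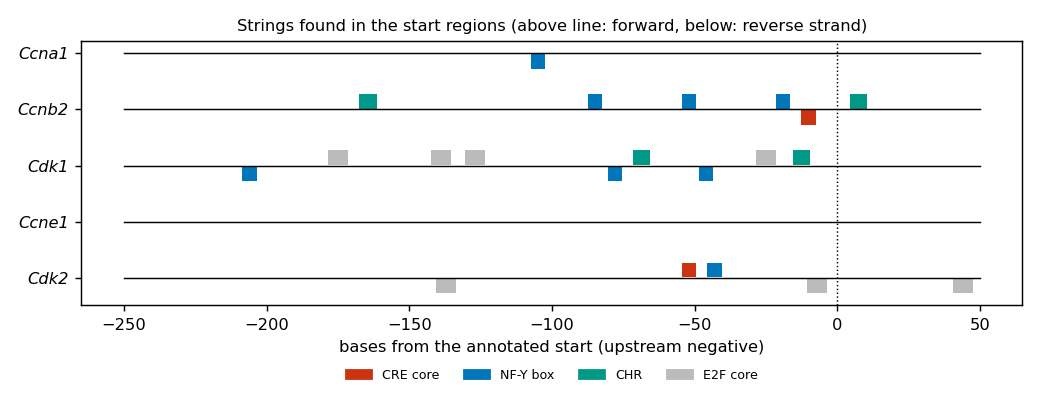
Position of the strings in the start regions of the 5 measured cyclin and CDK genes that have one, in bases from the annotated start, with strings of the transcribed strand above each line and those of the opposite strand below it. Ccnb2 and Cdk1 each hold 3 NF-Y boxes, all before the start, and 2 CHR strings, of which 1 in Ccnb2 lies after the start, Ccna1 holds 1 NF-Y box, and Ccne1 holds none of the strings drawn.

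Levels are log2 values after RMA, a method that corrects background, normalises arrays to each other and summarises the probes of a transcript. A change is KO minus WT on this scale, and a gene was called changed at a limma p under 0.05 after Benjamini-Hochberg adjustment over all 25689 features. Crem, the disrupted gene, was read first. It lay between 10.89 and 11.04 in WT and between 9.01 and 9.41 in KO and fell by 1.71 ± 0.07 (SE, n = 5 per group, limma adjusted p = 3.0e-10), and no KO array reached the WT range. Over all genes 44.3% were called changed, 31.1% higher and 13.2% lower in KO, and the median change was 0.07. Arrays of 1 genotype correlated at 0.992 or more over all features and arrays of different genotype at 0.952 or less. The labels give 4 batches, without saying of what: batch 2 held 3 WT arrays and KO replicate 3, batch 4 held WT replicate 5 and 3 KO arrays, and the single arrays of batches 1 and 3 were KO replicate 2 and WT replicate 4. KO replicates 2 and 3, from batches outside batch 4, stood apart from the other KO arrays in the genes of elongating spermatids: the mean level of the 10 markers was 10.15 and 10.18 in them and as low as 8.03 in the others, and 13.03 to 13.30 in WT.

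The cyclins and CDKs moved little, and those that changed rose. In KO testis Cdk1, Ccnb2, Ccnd2, Ccna1 and Ccne2 were higher, by 0.26 to 0.40 on the log2 scale or 1.20-fold to 1.32-fold. Ccna2, Ccnd1, Ccne1 and Cdk2 did not pass the test, and none of the 9 genes was lower by limma, as all 9 changes were above 0. The share called was 5 of 9 or 55.6%, against the 44.3% of all genes, and the share called higher was likewise 55.6% against 31.1%. The median change was 0.26, against 0.07 over all genes and 0.11 over all genes without the lowest 25% of features. By mean WT level the 9 genes lay at 63.6 to 97.6 percent of all features. They were not set against genes of like level. In 3 of the 9 genes (Cdk1, Ccnb2 and Ccnd2) the WT and KO arrays did not overlap, with KO higher, as was so for 22.0% of all genes (32.7% with either genotype higher). Without KO replicates 2 and 3 the calls were 4, as Ccne2 was lost (0.19, limma adjusted p = 0.149), and the change of Ccna1 was 0.40. With whole testis RNA a shift in the share of a cell type and a change of RNA per cell cannot be told apart.

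**Figure D2:**
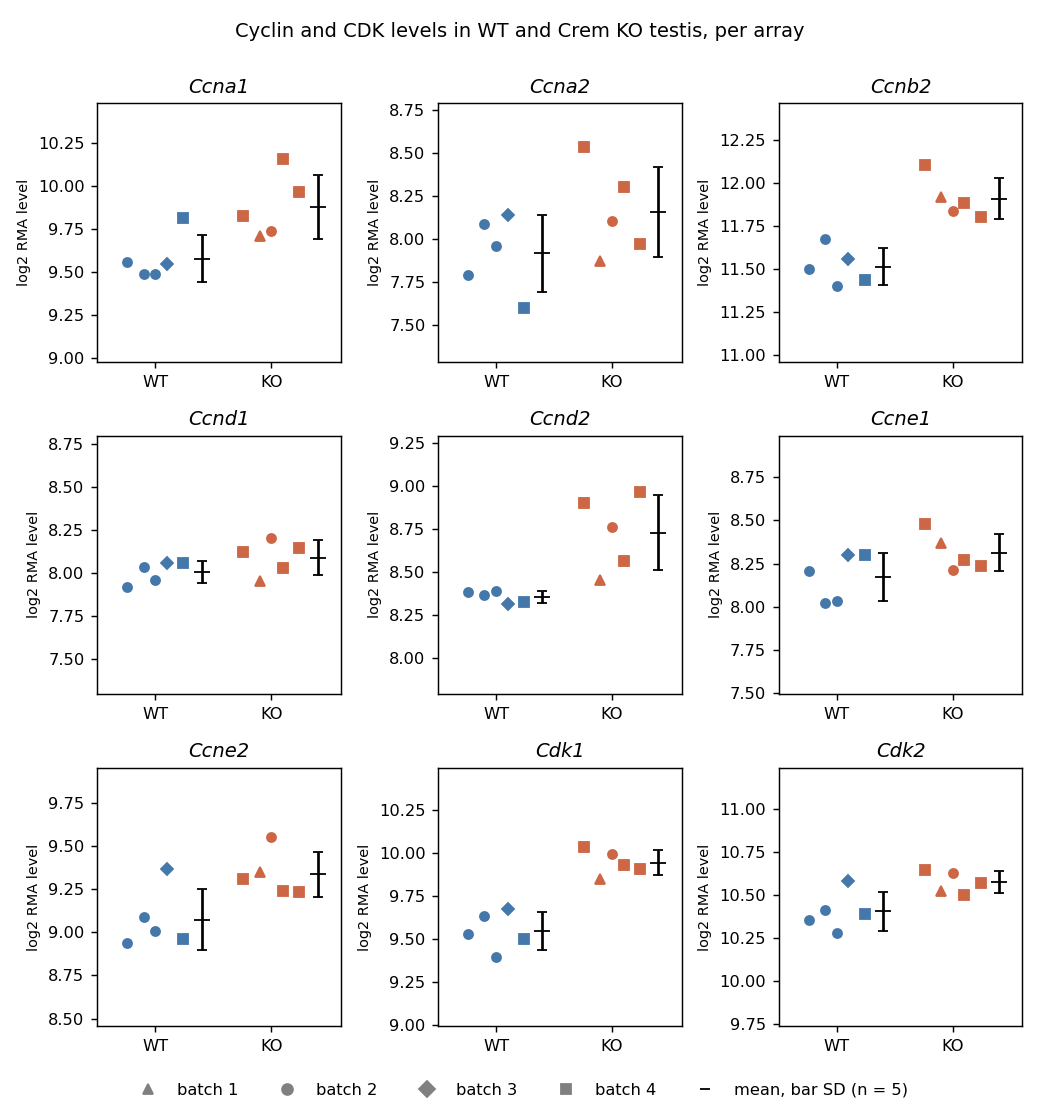
Log2 RMA level of the 9 measured cyclin and CDK genes in each WT and KO array (n = 5 per genotype), with the batch as the marker shape and the mean ± SD beside each group. All panels span the same range of log2 units. Every KO array of Cdk1, Ccnb2 and Ccnd2 lies above every WT array, and the groups overlap in the other 6 genes.

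Cdk1 (transcript cluster 10369815) is the kinase that drives entry into mitosis and meiosis. Its level was 9.53, 9.63, 9.39, 9.67 and 9.50 in WT replicates 1 to 5 and 10.03, 9.85, 9.99, 9.93 and 9.91 in KO replicates 1 to 5. The lowest KO array stood above the highest WT array, and KO arrays were closer to each other than WT arrays. The mean went from 9.55 ± 0.11 to 9.94 ± 0.07 (SD, n = 5), a change of 0.40 ± 0.07 (SE, limma adjusted p = 3.2e-04). Cdk1 was the member that passed the test under each of the 24 alternative settings, with changes from 0.19 to 0.47 and an adjusted p of at most 0.0487. Within batch 2 its change was 0.47 and within batch 4 it was 0.46.

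Ccnb2 (transcript cluster 10594774) encodes cyclin B2, which binds CDK1. It read 11.50, 11.67, 11.40, 11.56 and 11.44 in the WT replicates and 12.10, 11.92, 11.83, 11.88 and 11.80 in the KO replicates. Again all KO arrays stood above all WT arrays. The mean rose from 11.51 ± 0.11 to 11.91 ± 0.12 (SD, n = 5) and the change was 0.39 ± 0.07 (SE, limma adjusted p = 7.4e-04). The rise of Ccnb2 was as large as that of its kinase, and the 2 genes ranked at 88.2 and 88.4 percent of all 19661 genes ordered by change. The change of Ccnb2 was 0.31 in batch 2 (adjusted p = 0.163) and 0.49 in batch 4 (adjusted p = 0.0675), where 1 array stands for a genotype.

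Of the A cyclins, Ccna1 (transcript cluster 10498192), the form of meiotic cells, was higher in KO. Its WT levels were 9.56, 9.49, 9.49, 9.54 and 9.81 and its KO levels 9.82, 9.71, 9.74, 10.16 and 9.96. WT replicate 5 stood apart from the other WT arrays and reached into the KO range. The mean rose from 9.58 ± 0.13 to 9.88 ± 0.19 (SD, n = 5), a change of 0.30 ± 0.09 (SE, limma adjusted p = 0.0190). With batch as a fixed block the change was 0.20 and the call was lost (adjusted p = 0.12), and within batches 2 and 4 it was 0.23 and 0.17. Ccna2 (transcript cluster 10497831), the A cyclin of mitotic cells, was the most variable of the 9 genes between mice. It ranged from 7.60 to 8.14 in WT and from 7.88 to 8.53 in KO, and the change of 0.24 had a 95% interval from -0.04 to 0.52 (adjusted p = 0.162). It was 0.15 without KO replicate 1, 0.41 with batch as a fixed block (limma adjusted p = 0.0686), and 0.16 and 0.67 within batches 2 and 4. The interval holds the changes measured for all of the other 8 genes, so Ccna2 was not shown to differ from them.

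Among the genes of the G1/S step, Ccne2 (transcript cluster 10503264), which encodes cyclin E2, read 8.94, 9.09, 9.01, 9.37 and 8.96 in WT and 9.31, 9.35, 9.56, 9.24 and 9.23 in KO. The groups overlap through WT replicate 4, the array of batch 3, which is above 4 of the 5 KO arrays. The mean rose from 9.07 ± 0.18 to 9.34 ± 0.13 (SD, n = 5) and the change was 0.26 ± 0.09 (SE, limma adjusted p = 0.0314). Of the 5 calls that of Ccne2 was lost most often. It did not hold under 10 of the 24 alternatives, and leaving out WT replicate 1, 2, 3 or 5 or KO replicate 3 was enough (changes of 0.21 to 0.27, adjusted p of 0.0519 to 0.0806). Leaving out WT replicate 4 moved the change the other way, to 0.34 (limma adjusted p = 0.0036). Batch as a fixed block gave 0.42 (limma adjusted p = 0.0030). In that fit WT replicate 4 and KO replicate 2, each alone in its batch, add nothing to the genotype estimate. Within batches 2 and 4 the change was 0.54 and 0.30.

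Ccne1 (transcript cluster 10562563), which encodes the other E cyclin, lay between 8.02 and 8.30 in WT and between 8.22 and 8.48 in KO. Its change of 0.14 had a 95% interval from -0.02 to 0.31 (adjusted p = 0.169). Cdk2 (transcript cluster 10373530), the kinase partner of the E and A cyclins, read 10.36, 10.41, 10.28, 10.58 and 10.39 in WT and 10.65, 10.52, 10.63, 10.50 and 10.57 in KO. WT replicate 4 was the one WT array within the KO range. Its change was 0.17 with a 95% interval from 0.03 to 0.31, and it missed the threshold (limma adjusted p = 0.0534). 6 of the alternatives brought Cdk2 past it, among them batch as a fixed block (0.23, limma adjusted p = 0.0391) and leaving out WT replicate 4 (0.21, limma adjusted p = 0.0151). Both of these settings take WT replicate 4, the only array of its batch, out of the genotype estimate.

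The D cyclins, which link growth signals to CDK4 and CDK6, came apart. Ccnd2 (transcript cluster 10548105), a cyclin of spermatogonia and of the somatic cells of the gonads, read 8.39, 8.37, 8.39, 8.32 and 8.33 in WT and 8.90, 8.46, 8.76, 8.56 and 8.96 in KO. WT arrays stood close together, while KO arrays spread over a wider range that lay wholly above them. The mean rose from 8.36 ± 0.03 to 8.73 ± 0.22 (SD, n = 5), a change of 0.37 ± 0.09 (SE, limma adjusted p = 0.00457). Ccnd1 (transcript cluster 10569646), in contrast, lay between 7.92 and 8.06 in WT and between 7.95 and 8.21 in KO. Its change of 0.08 was close to the median of all genes, with a 95% interval from -0.05 to 0.22 (adjusted p = 0.321).

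Whether relatives within a family changed unequally was tested on their difference within each array, which cancels any shift shared by the genes of an array. A feature has its own probes, so the difference itself is not a ratio of transcripts and only its shift between genotypes is read. For 4 pairs the shift was tested by an exact permutation test over the 252 splits of the 10 arrays (two-sided), whose smallest possible p is 0.00794. Ccnd1 minus Ccnd2 lay between -0.47 and -0.26 in WT and between -0.82 and -0.51 in KO, a shift of -0.29 (exact p = 0.00794, 0.0159 after Benjamini-Hochberg over the 4 pairs). The groups did not overlap, and Ccnd2 rose more than Ccnd1. Cdk1 minus Cdk2 lay between -0.90 and -0.78 in WT and between -0.67 and -0.57 in KO, a shift of 0.23 (exact p = 0.00794, adjusted 0.0159). Here too no arrays overlapped, and Cdk1 rose more than Cdk2. For Ccna1 minus Ccna2 the shift was 0.06 (exact permutation p = 0.786, adjusted 0.786), with WT differences from 1.40 to 2.21 and KO differences from 1.29 to 1.99. For Ccne1 minus Ccne2 it was -0.12 (exact permutation p = 0.333, adjusted 0.444), with -1.07 to -0.67 in WT and -1.34 to -0.83 in KO. In the A and E cyclins, then, 1 gene of each pair passed the test across genes and the other did not, but the shift between the relatives did not pass the test over all arrays, which takes no account of batch. Within batches 2 and 4 the shift was -0.42 and -0.27 for Ccne1 minus Ccne2, below the pooled value in both, and 0.07 and -0.50 for Ccna1 minus Ccna2. For Ccnd1 minus Ccnd2 it was -0.15 and -0.45, and for Cdk1 minus Cdk2 it was 0.20 and 0.28. The pair of Ccnb1 and Ccnb2 was not tested.

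**Figure D3:**
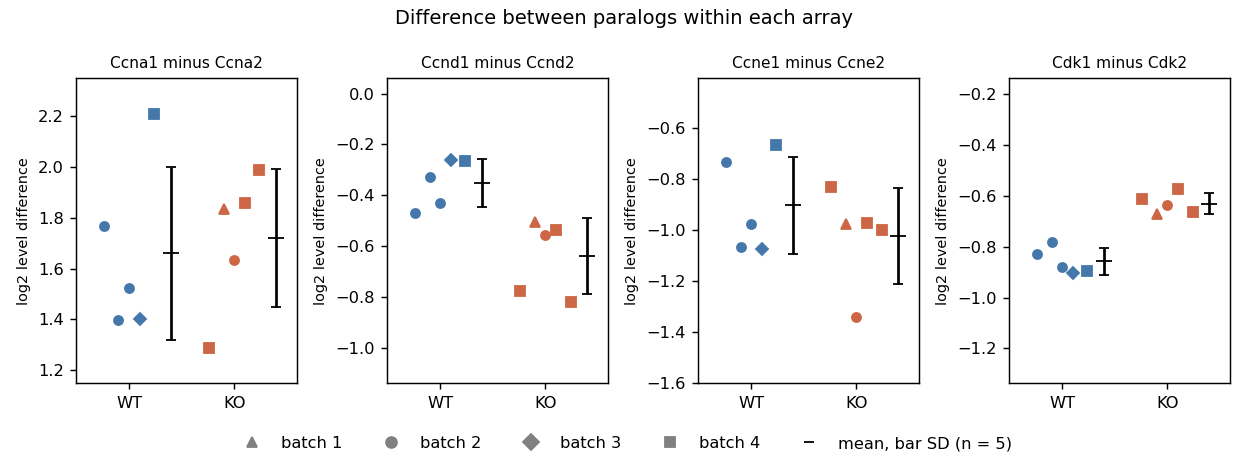
Difference of the log2 levels of related genes within each array, for 4 pairs, with the batch as the marker shape and mean ± SD (n = 5) beside each genotype. WT and KO arrays separate for Ccnd1 minus Ccnd2 and for Cdk1 minus Cdk2 and overlap for the A and E cyclins.

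The size of the changes depended on how the arrays were centred more than on any single array. All 9 changes were above 0 within batch 2 and within batch 4. When arrays were centred on 9 housekeeping genes the median of all genes shifted by -0.14, and 2 of the members (Cdk1 and Ccnb2) were called. Of these 9 genes 4 were themselves called higher and 2 lower here, with changes from -0.24 to 0.81. Without B2m among them the shift was -0.05 and 3 members were called. When the arrays were centred on the 7 measured genes that the study used as qPCR references, the median shifted by -0.20. Cdk1 alone was called, at 0.19. Of these 7 genes 4 were themselves called higher and 1 lower here (median change 0.32). Under that centring Ccnd1, Ccne1 and Cdk2 had changes below 0, and with the housekeeping genes Ccnd1 did. The within-array differences between relatives do not depend on the centring.

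**Figure D4:**
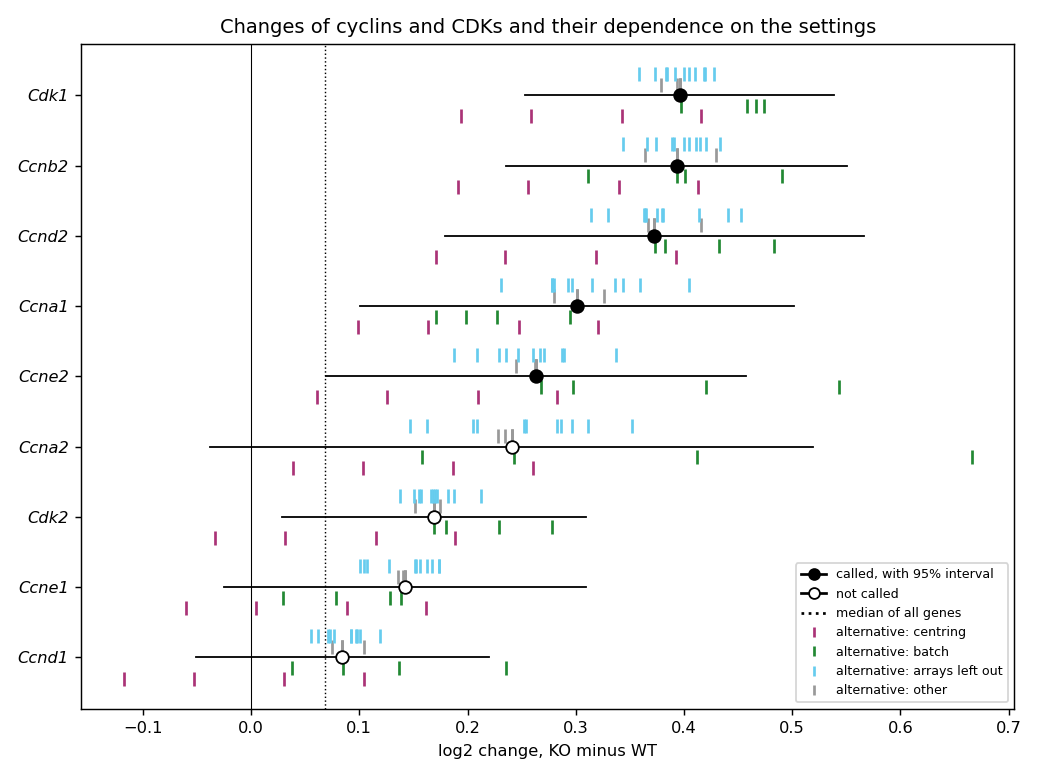
Log2 change of each member, KO minus WT, with its 95% interval (black; filled where called, open where not) and the changes under the 24 alternative settings as ticks coloured by kind. The dotted line is the median of all genes at 0.07. Centring on the qPCR reference genes gives the lowest changes, and Cdk1 stays between 0.19 and 0.47.

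The rest of the cell cycle machinery was read from 8 lists of 140 other genes, 132 of them measured. In KO 72 of these genes were higher (54.5%, against 31.1% of all genes) and 9 were lower (6.82%, against 13.2%), with a median change of 0.22. They too were not set against genes of like level. Of the other cyclins 11 of 18 were higher and 1 lower, with a median of 0.28. Ccnt1, the cyclin of CDK9 in transcript elongation, rose by 1.06 ± 0.07 (SE), Ccng2 rose by 0.60 ± 0.07, and Ccnd3, the remaining D cyclin, fell by 0.59 ± 0.07. Of the D cyclins, then, Ccnd2 rose, Ccnd3 fell and Ccnd1 did not pass the test. Of 16 other CDKs 9 were higher and 3 lower, and Cdk17 rose by 0.56 ± 0.06 and Cdk15 by 0.53 ± 0.09. Cdk18 and Cdk16, like Cdk17 kinases of the PCTAIRE group, fell by 1.10 ± 0.05 and 0.54 ± 0.07. Cdk14, a partner of cyclin Y, fell by 0.86 ± 0.23. Cdk14 varied most in WT, from 8.20 to 9.66, and its call was lost with batch as a fixed block (limma adjusted p = 0.0724). Of 6 CDK inhibitors 1 was higher (Cdkn2d, by 0.29 ± 0.10) and 1 lower (Cdkn1c, which fell by 0.57 ± 0.07). The call of Cdkn2d was lost under 10 of the 24 alternatives, among them leaving out WT replicate 1 or 3 or KO replicate 1, 3 or 4.

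The enzymes that set the activity of CDK1 moved in both directions or were not called. WEE1 phosphorylates CDK1 and holds it inactive, and Wee1 read 10.25 to 10.44 in WT and 10.97 to 11.30 in KO, a rise of 0.84 ± 0.07 (SE, limma adjusted p = 4.0e-07). Cdc25c, whose phosphatase removes that phosphate, fell by 0.51 ± 0.10 (limma adjusted p = 9.1e-04), from 8.42 to 9.01 in WT to 8.04 to 8.31 in KO. Cdc25a, of the same phosphatase family and named here after its values were seen, rose by 0.27 ± 0.06 (limma adjusted p = 0.0032). Cdc25b, Pkmyt1 and Wee2, also among the listed enzymes and named after their values were seen, were not called. Their changes were -0.04, 0.19 and 0.01, and in each of them the groups overlapped. The groups did not overlap in Wee1, Cdc25c and Cdc25a, as was so for 32.7% of all genes. Cdk1 and Ccnb2, whose product these enzymes act on, rose. Bora, a cofactor in the activation of Polo-like kinase, rose by 0.52 ± 0.07. Of the 12 genes of this list 6 were higher and 1 was lower. Among 20 M phase kinases and spindle checkpoint genes 10 were higher and 1 lower, with a median of 0.25. Cdca8 and Incenp, which encode subunits of the chromosomal passenger complex, rose by 0.60 ± 0.06 and 0.50 ± 0.07, and Mastl, whose kinase protects the substrates of CDK1 from dephosphorylation, fell by 0.95 ± 0.08.

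Of 23 genes of the ubiquitin ligases that destroy cyclins 17 were higher and 1 was lower. The 17 became 13 to 18 when single arrays were left out, 2 with arrays centred on the housekeeping genes, and 0 with the qPCR reference genes and in batch 2 or 4 alone. Cdc27 and Cdc23, subunits of the anaphase-promoting complex, rose by 0.37 ± 0.07 and 0.36 ± 0.07. Skp2, the F-box protein that brings CDK inhibitors to the SCF ligase, lay between 10.53 and 10.86 in WT and between 7.62 and 8.06 in KO and fell by 2.79 ± 0.09 (SE, limma adjusted p = 2.8e-11). This was the largest change of the 132 genes in either direction. Among 19 RB and E2F genes 9 were higher and none lower, with E2f5 at 0.74 ± 0.11 and E2f8 at 0.40 ± 0.10. Among 18 genes of DNA replication licensing 9 were higher and 1 lower, with Cdc7 at 0.58 ± 0.10, Orc4 at 0.42 ± 0.08 and Orc1 at -0.39 ± 0.06. CDC7 and the ORC proteins act at replication origins.

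**Figure D5:**
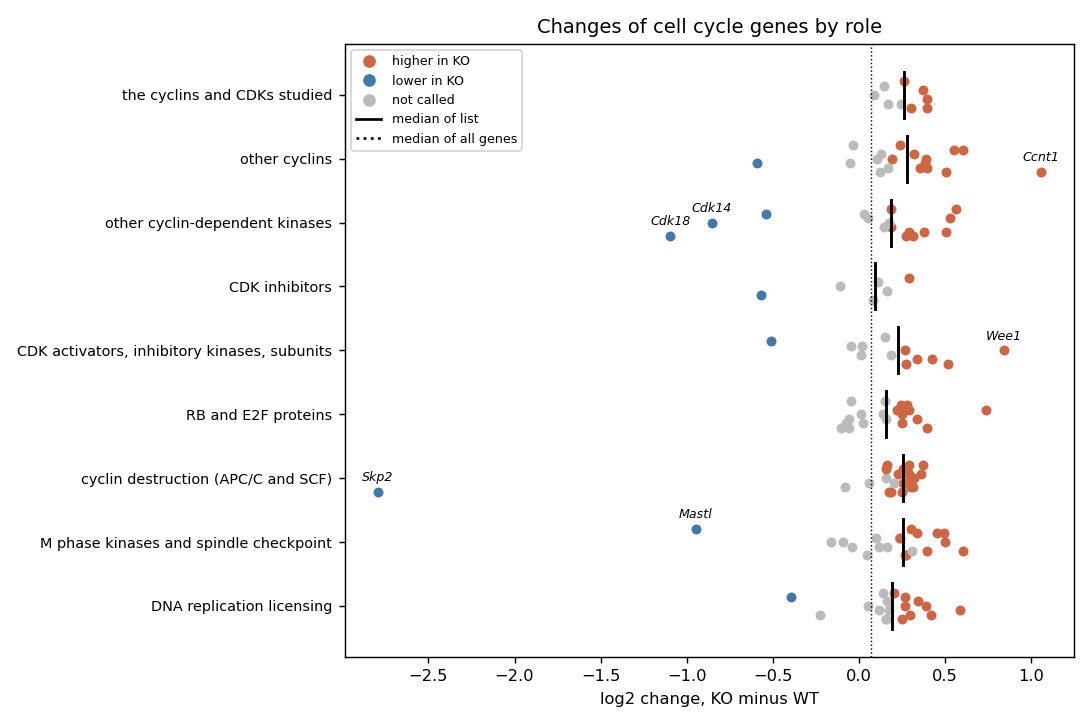
Log2 change, KO minus WT, of each measured gene of the cyclins and CDKs studied and of 8 other cell cycle lists, coloured by call, with the median of each list as a bar and the median of all genes (0.07) as a dotted line. The 72 genes higher in KO lie to the right and the 9 lower ones to the left, with Skp2, Cdk18, Mastl and Cdk14 farthest out.

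Cell type markers moved with the genotype, and their part in the changes of the cyclins and CDKs was not tested. The 10 markers of elongating spermatids were all lower, with a median of -4.95, and Prm1, a protamine that packs sperm DNA, fell by 5.52. Of 9 round spermatid markers 7 were lower and 1 higher, with Catsper3, a subunit of the sperm calcium channel, at -5.44 and Dpy19l2 at 0.28, and their mean level was 11.11 to 11.27 in WT and 8.87 to 9.17 in KO. Markers of the cells that use the cyclins moved less. Of 18 spermatocyte markers 8 were higher and 2 lower, with a median of 0.16 and mean levels of 10.52 to 10.65 in WT and 10.61 to 10.68 in KO. The list was not of one piece, since Meiob, a meiotic recombination factor, rose by 0.82 and Syce2, of the synaptonemal complex, fell by 1.69. Of 10 spermatogonial markers 2 were higher, 1 lower and 7 not called, with a median of -0.00135 and mean levels of 7.50 to 7.60 in WT and 7.52 to 7.64 in KO; Kit, the receptor of differentiating spermatogonia, rose by 0.47, and Gfra1, of undifferentiated ones, fell by 0.29. Taken over the median of the spermatocyte markers, the changes of Cdk1 and Ccnb2 were 0.23 higher, that of Ccnd2 0.21 and that of Ccna1 0.14. That of Ccne2 was 0.10 higher, that of Ccna2 0.08 and that of Cdk2 0.00471, while Ccne1 lay at -0.02 and Ccnd1 at -0.08. As the changes of these markers ran from -1.69 to 0.82, their median is no measure of the share of spermatocytes.

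Somatic markers, of interest for the D cyclins that somatic cells also use, rose in part. The share called higher was 83.3% for Leydig cells and 87.5% for macrophages, against 31.1% of all genes. It was 36.4% for Sertoli, 28.6% for endothelial and 16.7% for myoid cell markers. Of 6 Leydig cell markers 5 were higher (median 0.57, mean levels of 9.86 to 10.04 in WT and 10.23 to 10.91 in KO) and of 8 macrophage markers 7 were higher (median 0.48, mean levels of 7.27 to 7.46 and 7.69 to 8.33). Hsd17b3, of testosterone synthesis, rose by 1.08 and Adgre1, a surface antigen of macrophages, by 1.52. Of 11 Sertoli cell markers 4 were higher and none lower, with a median of 0.13 mean levels of 8.57 to 8.72 and 8.70 to 8.90, and Fshr, the receptor of follicle-stimulating hormone, at 0.35. Of 6 peritubular myoid cell markers 1 was higher and 1 lower (8.47 to 8.64 and 8.43 to 8.65), with Myh11 at 0.21 and Actg2 at -0.63. Of 7 endothelial markers 2 were higher, 1 lower and 4 not called, with a median of 0.06. Their mean level (6.77 to 6.92 and 7.24 to 7.31) moved with Tek, an angiopoietin receptor, which rose by 2.05, while Flt1 fell by 0.18. In the Leydig, macrophage and endothelial lists the mean level of every KO array was above that of every WT array. The same held for the level of Ccnd2, as it did for those of Cdk1 and Ccnb2 and for 22.0% of all genes. Whether these cells carry the Ccnd2 signal was not tested.

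The genes with profiles most like a member were found by the root mean square (RMS) difference over the 10 arrays, each gene centred on its own mean. Nearest to Cdk1 were Mdp1 and Rragb (RMS 0.0377 and 0.0421), with changes of 0.43 and 0.41. Nearest to Ccnb2 were Med6 and Bccip (RMS 0.0425 and 0.0498), with changes of 0.43 and 0.40. Cdk1 itself was the 28th nearest of 19660 genes to Ccnb2, and Ccnb2 the 154th nearest to Cdk1. Nearest to Ccna1 were Ciao2b and Ppp6c (0.0542 and 0.0623), nearest to Ccnd2 were Tyro3 and Dnah9 (0.0537 and 0.0542), and nearest to Ccne2 were Sap30 and Chrdl1 (0.0689 and 0.0709). None of these 10 nearest genes is in the cell cycle lists.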

How the data were processed

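Whole testis RNA of 5 WT and 5 Crem KO mice was measured on Mouse Gene ST microarrays of Affymetrix. Among the adult samples with an RNA integrity value in the study, all 5 KO values were slightly above all 5 WT values. Whether this bears on the changes was not tested. The deposited values are log2 expression levels that the authors made with RMA from the XPS package of Bioconductor, using core transcript annotation and control probes, background from antigenomic probes and summarisation per transcript. The package version and the genome build of the probe annotation are not given in the sources used here. Of 35557 rows 9868 were empty, and the other 25689 features, with values from 2.74 to 14.6, all entered the tests. Features were named through GEO's platform annotation, with symbols updated through RefSeq (GRCm38.p6, 20696 matched). Of the features 20777 had 1 symbol, 232 several and 4680 none, which leaves the last group unnamed here. The 20777 gave 19661 genes, 564 with more than 1 feature, of which the feature with the highest mean was used. Signal of isoforms, or of near-identical relatives, cannot be separated.

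The genotypes were compared by limma 3.58.1 in R 4.3.3 (lmFit, eBayes, two-sided, no covariate, Benjamini-Hochberg over all features, adjusted p under 0.05). The fit was tested on simulated data. Differences between related genes were tested by exact permutation. Precision is set by the number of arrays, and the median SE of a log2 change was 0.0755 over all genes and 0.0774 over the members. Replicates were numbered in order of deposition. The members and the gene lists were chosen with earlier results of these data known. Genes named in the text are Crem, the members, the 2 called genes with the largest rise and fall in each cell cycle list, the called gene with the largest rise and fall in each marker list, and the 2 nearest genes of each called member. Cdc25a, Cdc25b, Pkmyt1, Wee2 and Cdk16 were added after their values were seen. The 24 alternatives changed centring, normalisation, batch, weights, moderation, a filter on dim features, the feature of a gene, and the arrays used. Strings were searched in RefSeq promoters, and 4 members (Ccna2, Ccnd1, Ccnd2 and Ccne2) are not shown there. Ccnb1 was not analysed on the arrays.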

Additional observations from a re-analysis of the deposited data

Results flagged for a closer look

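Of 20 groups of 5 arrays (Crem and the 9 measured members in each genotype), 1 held an array far from the others. The Ccna1 level in WT replicate 5 was 9.81 while the nearest WT array was at 9.56, a gap of 0.780 of the whole WT range against a critical value of 0.71. Chance alone gives about 1 such group in 20. WT replicate 5 is the WT array of batch 4, the batch of 3 of the KO arrays. The cause was not tested.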

How the results depend on the processing

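The count of 5 members higher in KO was 4 to 6 when arrays were left out in turn. It was 2 with arrays centred on the housekeeping genes, 3 without B2m among these genes, 1 with the qPCR reference genes, 3 in batch 2 alone and 1 in batch 4 alone, and no member was lower under any of the 24 alternatives. Of the other cell cycle genes, 72 higher and 9 lower became 26 and 14 with the housekeeping genes, 15 and 21 with the qPCR reference genes, and 15 higher in each of batches 2 and 4 alone, with 5 lower in batch 2, while leaving out arrays gave 62 to 81 higher and 9 to 10 lower. Centring on the housekeeping genes gave Ccnd1 a change of -0.053, and the qPCR reference genes gave Ccnd1 -0.12, Ccne1 -0.060 and Cdk2 -0.033. These 2 centrings turned the split over all genes from 6106 higher and 2599 lower to 2787 and 4640, and to 1889 and 6220. The housekeeping genes without B2m gave 4613 and 3029. The shift of Ccna1 minus Ccna2 was -0.50 in batch 4 alone and -0.01 to 0.20 when arrays were left out, at -0.00462 without WT replicate 2, -0.0037 without WT replicate 4 and -0.00673 without KO replicate 5. That of Ccnd1 minus Ccnd2 was -0.15 in batch 2 and -0.45 in batch 4, that of Ccne1 minus Ccne2 was -0.42 in batch 2, and that of Cdk1 minus Cdk2 was 0.28 in batch 4. The causes were not tested. Calls of Ccnb2 and Ccnd2 were lost under 3 alternatives each, of Ccna1 under 6 and of Ccne2 under 10, with no sign turned.

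In batch 2 alone KO, and in batch 4 alone WT, is 1 array, which was assumed to vary like the others, and fewer arrays enter the fit. With batch as a fixed block, KO replicate 2 and WT replicate 4, the only arrays of batches 1 and 3, do not inform the genotype estimate. No paired analysis was possible because the labels give no shared replicate numbers. The files used here give no background signal, so it was not checked which members stand clear of it.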
